A study of Homo sapiens with 10 samples.

Results

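The genes described here encode the actin of smooth muscle and a group of proteins that bind or move actin filaments in contractile cells: ACTA2, TAGLN, MYL9, CNN1, CNN2, CNN3, TPM1, TPM2, TPM3 and TPM4. The 10 genes were taken by symbol from the 60168 genes in the deposited tables, and together they have 155 annotated transcripts, of which 110 belong to the 4 tropomyosin genes. In MCF10A cells, a non-transformed human mammary epithelial line, the study asked which RNAs differ when activated YAP or TRAM2 is expressed from a vector. MCF10A-YAP cells were transduced with a YAP overexpression vector, which in the study carries the constitutively active form YAP5SA, MCF10A-TRAM2 cells with a TRAM2 vector, and MCF10A-control cells with the empty vector. All 3 groups share the parental line, the medium with horse serum, EGF, insulin and hydrocortisone, antibiotic selection after transduction and harvest below full confluence. In the study's methods the YAP5SA vector has a blasticidin-resistance backbone and the TRAM2 vector a puromycin-resistance one. Backbone and resistance gene thus differ between MCF10A-YAP and MCF10A-TRAM2, and those of the empty vector are not named. YAP is the transcriptional co-activator at the end of the Hippo pathway, and TRAM2 belongs to the channel through which new secretory and membrane proteins enter the endoplasmic reticulum.

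Smooth-muscle actin, encoded by ACTA2, polymerizes into the same kind of filament as the cytoplasmic actins and is a defining protein of smooth-muscle, myoepithelial and myofibroblast cells. Tropomyosins are coiled-coil dimers that lie head to tail along the groove of the filament and set which myosins and other proteins can reach it. Each tropomyosin gene can give long proteins, which begin with the exons of an upstream start, and, in TPM1, TPM3 and TPM4, short proteins, which begin with a separate first exon inside the gene. Calponins and transgelin share a calponin-homology domain and bind the side of the filament, and MYL9 is the regulatory light chain whose phosphorylation switches on smooth-muscle and nonmuscle myosin.

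The series holds 10 libraries, 2 of MCF10A-YAP, 4 of MCF10A-TRAM2 and 4 of MCF10A-control, with 8489854 to 16314438 estimated counts each. Counts of control libraries A and C, and of B and D, did not differ detectably beyond sampling noise over the 2592 genes with whole counts in the group (chi-square per degree of freedom 0.99, p = 0.582, and 1.03, p = 0.13, by the chi-square test over genes), while the other 4 control pairs did (1.14 to 1.19), so each pair was counted as 1 sample. With the genes chosen pair by pair, B and D did differ (1.05, p = 0.0208 by the chi-square test), and once genes with fractional estimated counts entered, the ratio was 1.23 (A, C) and 1.22 (B, D), so the 10 libraries were also fitted separately. This left 2 MCF10A-YAP, 4 MCF10A-TRAM2 and 2 MCF10A-control samples. The sources used here do not say whether the samples of a group came from separate cultures, so that p-values measure the spread between these samples, which may be technical. TRAM2 itself was at 250 to 611 counts per 1000000 (CPM) in the 4 MCF10A-TRAM2 samples and at 28.4 and 28.9 CPM in MCF10A-control, and it also reached 242 and 247 CPM in MCF10A-YAP. YAP1 was at 337 and 342 CPM in MCF10A-YAP, against 187 and 187 CPM in MCF10A-control. The library MCF10A-TRAM2 B stood apart from the other 3 of its group on the second principal component and had the highest TRAM2 level.

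Of the 10 genes, 9 had enough counts to be tested. In MCF10A-YAP against MCF10A-control, 7 of these 9 rose and none fell, with TAGLN, MYL9 and TPM1 highest in fold change. Calls required an absolute log2 fold change over 0.5 together with an adjusted p below 0.05 from edgeR's quasi-likelihood test, and 29.4% of the 15768 genes tested were called in this comparison, 15.3% as higher and 14.1% as lower. The median log2 fold change was 1.30 over the 9 members and -0.01 over all genes tested. In MCF10A-TRAM2 against MCF10A-control none of the 9 was called, where 0.0571% of all genes were. Both MCF10A-YAP libraries were in the first of 2 sequencing runs, and within that run the same 7 genes were called. In bulk RNA a change in the share of cells that express a gene and a change of its RNA per cell cannot be told apart. The plot of expression by sample shows both comparisons side by side.

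**Figure D1:**
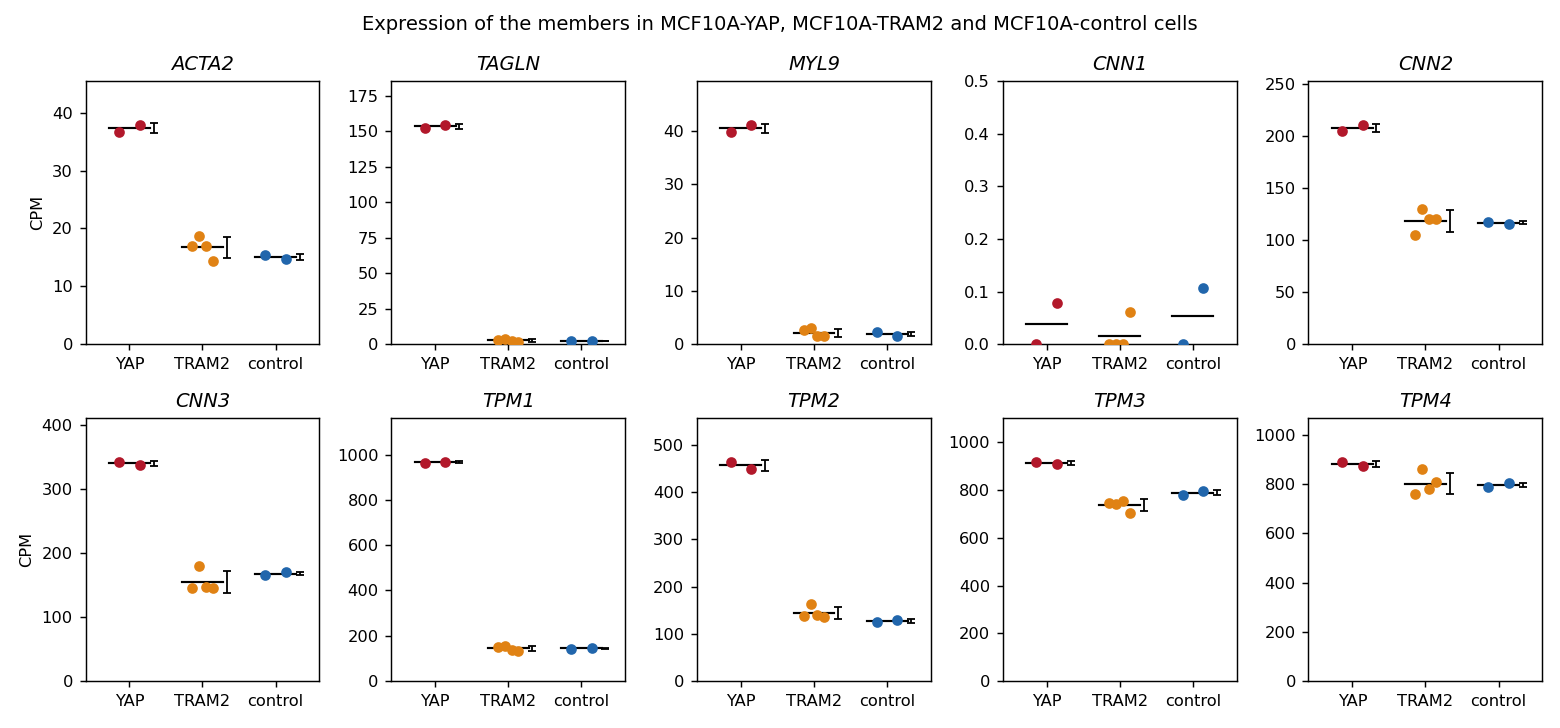
Expression of each gene in counts per 1000000 (CPM, vertical axis from 0, scaled gene by gene) in the 2 MCF10A-YAP, 4 MCF10A-TRAM2 and 2 MCF10A-control samples. Points are samples, the bar is the group mean and the bracket the SD (none is drawn for CNN1). In 7 genes both MCF10A-YAP samples lie far above the other 6, TPM3 and TPM4 differ little, and CNN1 has at most 2 counts in any sample.

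Of ACTA2, TAGLN and MYL9, the actin gene had the smallest rise. Positions are given on GRCh37 from GENCODE v44, since no source used here names the authors' build. ACTA2 (ENSG00000107796.13, GRCh37 chromosome 10, 90694831 to 90751096, minus strand) was at 36.7 and 37.9 CPM in MCF10A-YAP, at 14.3 to 18.7 CPM in MCF10A-TRAM2 and at 15.5 and 14.7 CPM in MCF10A-control. Both MCF10A-YAP samples lay above all the others, while the MCF10A-TRAM2 samples spanned the controls. The log2 fold change in MCF10A-YAP was 1.30 ± 0.11 (SE, adjusted p = 1.3e-07 from edgeR). Its level was low in every group: per length, 18.3 ± 0.3 transcripts per 1000000 (TPM units, distinct from the gene symbols TPM1 to TPM4) in MCF10A-YAP against 7.66 ± 0.15 in MCF10A-control (SD, n = 2 each). ACTA2 overlaps FAS on the opposite strand. The study's methods describe strand-specific libraries, but no source used here says whether the authors' counting used strand. FAS averaged 89.8 CPM in MCF10A-YAP, 60.8 in MCF10A-TRAM2 and 57.2 in MCF10A-control.

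TAGLN and MYL9 were low in every sample outside MCF10A-YAP. TAGLN (transgelin or SM22-alpha, an actin-bundling protein; ENSG00000149591.16, chromosome 11, 117070086 to 117078180, plus strand) had 1810 and 1995 estimated counts in MCF10A-YAP, 27 to 55 in MCF10A-TRAM2 and 45 and 42 in MCF10A-control. As CPM these were 152 and 154 in MCF10A-YAP, 1.70 to 3.80 in MCF10A-TRAM2 and 2.06 and 2.26 in MCF10A-control. No sample outside MCF10A-YAP exceeded 3.80 CPM, and the log2 fold change of MCF10A-YAP was 6.15 ± 0.16 (SE, adjusted p = 2.4e-11 from edgeR), a 70.9-fold higher level. PCSK7, which overlaps TAGLN on the opposite strand, averaged 61.2 CPM in MCF10A-YAP and 50.8 CPM in MCF10A-control. MYL9 (ENSG00000101335.10, chromosome 20, 35169900 to 35179850, plus strand) was at 39.9 and 41.1 CPM in MCF10A-YAP, 1.45 to 2.97 CPM in MCF10A-TRAM2 and 2.24 and 1.62 CPM in MCF10A-control. Its log2 fold change in MCF10A-YAP was 4.37 ± 0.22 (SE, adjusted p = 5.3e-09 from edgeR). The 95% interval was 3.89 to 4.85, and the controls held 49 and 30 counts.

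The 3 calponins were at very different levels. CNN1, the smooth-muscle calponin (ENSG00000130176.8, chromosome 19, 11649582 to 11661138, plus strand), had 0 and 1 counts in MCF10A-YAP, 0, 0, 0 and 1 in MCF10A-TRAM2, and 0 and 2 in MCF10A-control. These sums lie under a floor of 3 counts per group, which stands for 0.121 CPM in MCF10A-YAP, 0.0498 in MCF10A-TRAM2 and 0.0742 in MCF10A-control. A fall of CNN1 could therefore not be detected at this depth, and in no group did it rise above that floor. CNN2 (h2-calponin, the form of nonmuscle and smooth-muscle cells; ENSG00000064666.15, chromosome 19, 1026585 to 1039067, plus strand) was at 205 and 210 CPM in MCF10A-YAP, 104 to 130 CPM in MCF10A-TRAM2 and 118 and 116 CPM in MCF10A-control. It rose by 0.83 ± 0.08 on the log2 scale in MCF10A-YAP (SE, adjusted p = 1.2e-06 from edgeR). CNN3 (acidic calponin; ENSG00000117519.16, chromosome 1, 95362505 to 95392779, minus strand) was at 343 and 338 CPM in MCF10A-YAP, 145 to 180 CPM in MCF10A-TRAM2 and 166 and 170 CPM in MCF10A-control, a log2 fold change of 1.02 ± 0.10 in MCF10A-YAP (SE, adjusted p = 8.9e-06 from edgeR). The expressed calponins thus stood 1.78-fold (CNN2) and 2.03-fold (CNN3) above the controls. The 11 CNN2 pseudogenes in the tables, whose reads could be shared with CNN2, summed to 1.86 CPM in MCF10A-YAP and 1.41 CPM in MCF10A-control.

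Among the tropomyosins, TPM1 and TPM2 rose in MCF10A-YAP while TPM3 and TPM4 changed by less than the threshold. TPM1 (ENSG00000140416.21, chromosome 15, 63334819 to 63364114, plus strand) was at 963 and 969 CPM in MCF10A-YAP, 133 to 153 CPM in MCF10A-TRAM2 and 142 and 144 CPM in MCF10A-control. The log2 fold change in MCF10A-YAP was 2.75 ± 0.07 (SE, adjusted p = 3.3e-13 from edgeR), or 6.75-fold. TPM2, the beta-tropomyosin of muscle and fibroblasts (ENSG00000198467.15, chromosome 9, 35681989 to 35690053, minus strand), was at 465 and 449 CPM in MCF10A-YAP, 135 to 163 CPM in MCF10A-TRAM2 and 124 and 130 CPM in MCF10A-control. It rose by 1.85 ± 0.08 on the log2 scale in MCF10A-YAP (SE, adjusted p = 3.7e-10 from edgeR). For both genes the groups MCF10A-YAP and MCF10A-control did not overlap, but the same held for TPM3 and TPM4, which were not called. With 2 samples in each group this sets no gene apart.

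TPM3 and TPM4 encode the tropomyosins found in most nonmuscle cells. TPM3 (ENSG00000143549.21, chromosome 1, 154127784 to 154167124, minus strand) was at 920 and 908 CPM in MCF10A-YAP, 702 to 757 CPM in MCF10A-TRAM2 and 781 and 795 CPM in MCF10A-control. The log2 fold change of MCF10A-YAP was 0.21 ± 0.05 (SE, adjusted p = 0.0029 from edgeR), larger than the spread between samples but under the threshold of 0.5. TPM4 (ENSG00000167460.17, chromosome 19, 16177831 to 16213812, plus strand) was at 891 and 874 CPM in MCF10A-YAP, 760 to 861 CPM in MCF10A-TRAM2 and 790 and 803 CPM in MCF10A-control, a log2 fold change of 0.15 ± 0.06 in MCF10A-YAP (SE, adjusted p = 0.049 from edgeR). Over the alternative settings the adjusted p of TPM4 ran from 1.2e-05 to 0.53, the highest with counts scaled by effective length. Of the 8 TPM3 pseudogenes in the tables, TPM3P9 was at 21 CPM in MCF10A-YAP and 24.2 CPM in MCF10A-control and the others had group means of at most 3.52 CPM.

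In MCF10A-TRAM2 cells no member passed the test against MCF10A-control. The log2 fold changes against MCF10A-control ran from -0.12 for CNN3 to 0.30 for TAGLN, and the median over the 9 members was 0.02, against 0.00 over all genes tested. By edgeR 0 of 9 were called, and DESeq2 also called 0. Beside 1994 of all 15768 genes tested, 2 of the 9 members had an unadjusted p under 0.05 from edgeR. These were TPM2, at 0.18 ± 0.07 with an adjusted p of 0.29, and TPM3, at -0.10 ± 0.04 with an adjusted p of 0.38 (log2 fold changes with SE, edgeR). The intervals were narrow for the well-counted genes: -0.12 to 0.12 for TPM1, -0.10 to 0.12 for TPM4 and -0.12 to 0.17 for CNN2. They were wide for TAGLN (-0.23 to 0.84) and MYL9 (-0.47 to 0.73), so that changes of these sizes were not detectable at this depth. The file names place libraries A and B of MCF10A-TRAM2 and MCF10A-control in 1 sequencing run and C and D in another, and within these runs TAGLN gave log2 fold changes of 0.71 and -0.17 and MYL9 of 0.43 and -0.22, so that neither gene kept a direction. CNN3 was at 145, 180, 146 and 145 CPM in MCF10A-TRAM2 A to D, against 166 and 170 CPM in MCF10A-control, the single value above the controls being that of library B. Without that library its log2 fold change was -0.21 with an adjusted p of 0.0094 from edgeR, below the threshold of 0.5 in size.

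**Figure D2:**
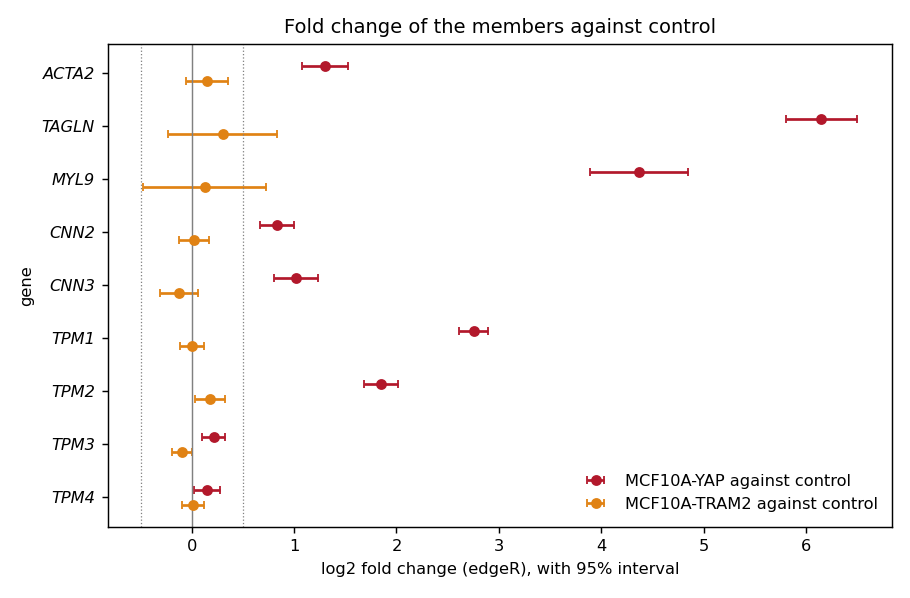
Log2 fold change (horizontal axis) of the 9 tested genes in MCF10A-YAP and in MCF10A-TRAM2 against MCF10A-control, from edgeR, with 95% intervals. Dotted lines mark the threshold of 0.5 in either direction; the MCF10A-YAP values of 7 genes lie beyond it, while all MCF10A-TRAM2 values lie between -0.12 and 0.30.

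Set directly against MCF10A-TRAM2, MCF10A-YAP had the same 7 genes called as higher and none as lower, where 14.9% of all genes tested were called as higher. The log2 fold changes were 5.85 ± 0.12 for TAGLN, 4.24 ± 0.18 for MYL9, 2.75 ± 0.05 for TPM1, 1.67 ± 0.06 for TPM2, 1.16 ± 0.09 for ACTA2, 1.14 ± 0.08 for CNN3 and 0.81 ± 0.07 for CNN2 (SE, largest adjusted p of the 7 was 8.1e-07 from edgeR). TPM3 (0.31 ± 0.04) and TPM4 (0.14 ± 0.05) again lay under the threshold. This comparison and that with MCF10A-control share the MCF10A-YAP samples.

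Levels can be set between genes only after division by transcript length, for which the deposited TPM units were summed per gene. In MCF10A-YAP the order was TPM1 (1263 ± 112), TPM3 (970 ± 10), TPM2 (268 ± 2), CNN3 (198 ± 9), TPM4 (194 ± 1), TAGLN (177 ± 9), CNN2 (110 ± 6), MYL9 (19.4 ± 0.3) and ACTA2 (18.3 ± 0.3), as mean TPM units with SD, n = 2. CNN3 and TPM4 overlapped in that order, and TPM1 stood above TPM3 in both samples. In MCF10A-control the order was TPM3 (849 ± 0.1), TPM4 (185 ± 5), TPM1 (184 ± 3), CNN3 (98.5 ± 2.3), TPM2 (75 ± 3), CNN2 (69.0 ± 1.0), ACTA2 (7.66 ± 0.15), TAGLN (2.11 ± 0.11) and MYL9 (0.985 ± 0.133), in the same unit with SD, n = 2. TPM4 and TPM1 overlapped there, while TPM1 was above TPM4 in both MCF10A-YAP samples.

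The tropomyosin pool as a whole differed in size and in make-up. Summed over the 4 genes it held 2696 ± 122 TPM units in MCF10A-YAP, 1257 ± 52 in MCF10A-TRAM2 and 1293 ± 5 in MCF10A-control (SD, n = 2, 4 and 2). TPM1 made up 46.8% ± 2.0 of it in MCF10A-YAP, 13.8% ± 2.0 in MCF10A-TRAM2 and 14.2% ± 0.2 in MCF10A-control. TPM3 made up 36.0% ± 1.3 in MCF10A-YAP, 63.9% ± 1.1 in MCF10A-TRAM2 and 65.7% ± 0.3 in MCF10A-control. TPM4 made up 7.20% ± 0.35 in MCF10A-YAP, 15.1% ± 1.6 in MCF10A-TRAM2 and 14.3% ± 0.3 in MCF10A-control. TPM2 took 9.96% ± 0.38 in MCF10A-YAP, 7.10% ± 0.52 in MCF10A-TRAM2 and 5.80% ± 0.25 in MCF10A-control. A limit of this scale is that short annotated fragments weigh heavily. Transcripts with no coding sequence held 54.4% of the TPM1 value in MCF10A-YAP and 54.8% in MCF10A-control. They held 13.3% of its counts in MCF10A-YAP and 9.91% in MCF10A-control. In TPM3 the long and short forms held 0.025% and 2.15% of the value in MCF10A-YAP, and 0.027% and 3.2% in MCF10A-control. TPM3-220 and TPM3-218, which are described below, are 543 and 540 bases long. As counts, TPM3 (788 ± 10 CPM) and TPM4 (796 ± 9 CPM) overlapped in MCF10A-control (SD, n = 2 each). The rank of TPM3 above TPM4 in MCF10A-control thus appears only after division by transcript length.

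**Figure D3:**
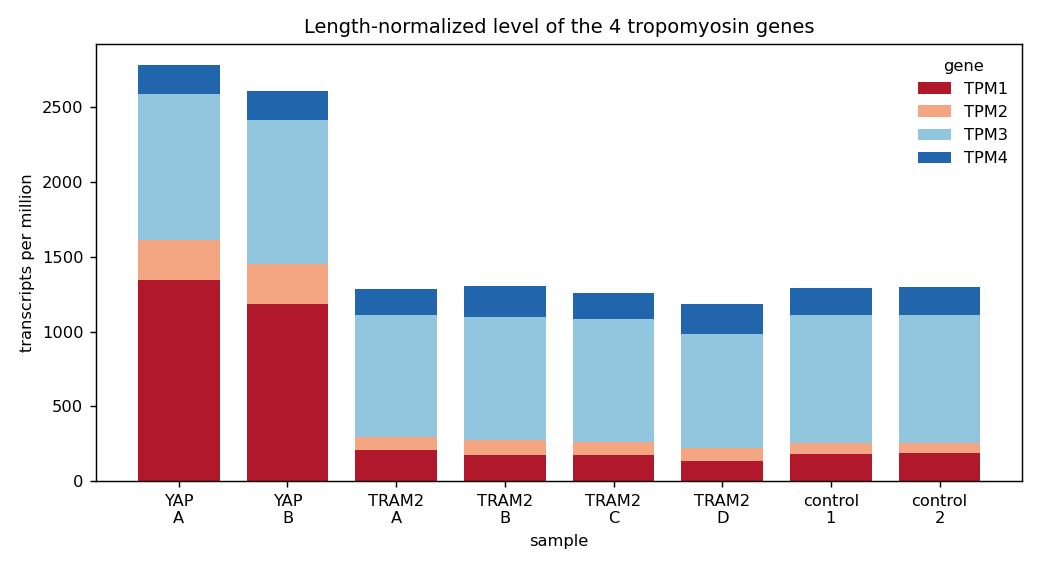
TPM units (transcripts per 1000000, vertical axis) of TPM1, TPM2, TPM3 and TPM4, stacked, in the 2 MCF10A-YAP, 4 MCF10A-TRAM2 and 2 MCF10A-control samples. The bars of MCF10A-YAP reach 2609 and 2782, against 1289 and 1297 in MCF10A-control, and the TPM1 part accounts for 45.4% and 48.2% of them.

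Which tropomyosin protein a gene gives depends on where its transcripts begin. The first 60 coding bases of the main long and short transcripts of TPM1 and TPM4 are shown, with TPM2 for comparison, because the 2 forms begin in these exons; capitals mark the start codon. The bases were read from GENCODE v44 lifted to GRCh37.
TPM1-220, long form, chr15:63335029-63335088, plus strand: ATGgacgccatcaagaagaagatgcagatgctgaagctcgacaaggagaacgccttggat
TPM1-208, short form, chr15:63340775-63340834, plus strand: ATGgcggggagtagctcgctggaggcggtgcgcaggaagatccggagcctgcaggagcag
TPM4-221, long form, chr19:16178435-16178494, plus strand: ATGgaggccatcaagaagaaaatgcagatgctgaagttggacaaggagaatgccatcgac
TPM4-218, short form, chr19:16187376-16187435, plus strand: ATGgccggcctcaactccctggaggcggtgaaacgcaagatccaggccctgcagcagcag
TPM2-202, long form, chr9:35689755-35689814, minus strand: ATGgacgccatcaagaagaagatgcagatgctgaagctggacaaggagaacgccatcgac
The long forms of TPM1 and TPM4 were identical at 52 of these 60 bases and those of TPM1 and TPM2 at 56, the short forms of TPM1 and TPM4 at 44, and the long and the short form of TPM1 at 20, as were those of TPM4. Over these bases the short form of TPM1 was thus closer to the short form of TPM4 than to its own long form.

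In TPM1 the transcripts of the long start rose and those of the short start fell in the same cells. Counts of transcripts that begin in a first exon of a long form (284 residues; first exons between 63334831 and 63335142) were at 605 and 618 CPM in MCF10A-YAP, 25.1 to 36.3 CPM in MCF10A-TRAM2 and 29.6 and 25.7 CPM in MCF10A-control. Those that begin in a first exon of a short form (245 or 248 residues; between 63340638 and 63340906) were at 44.7 and 36.1 CPM in MCF10A-YAP, 74.7 to 91.8 CPM in MCF10A-TRAM2 and 78.9 and 81.0 CPM in MCF10A-control. The MCF10A-YAP samples lay outside the range of the other 6 on both measures, and on opposite sides. Not all transcripts of a start encode its form. Those of the long form itself averaged 306 CPM in MCF10A-YAP and 16.3 CPM in MCF10A-control. Those of the short form averaged 25.45 CPM in MCF10A-YAP and 51.1 CPM in MCF10A-control. The long start also includes TPM1-212, annotated as subject to nonsense-mediated decay, at 229 CPM in MCF10A-YAP and 7.04 CPM in MCF10A-control. When each tropomyosin gene was split by first exon and fitted with all other genes, the long-start counts of TPM1 rose by 4.46 ± 0.15 on the log2 scale in MCF10A-YAP (SE, adjusted p = 1.0e-07 from edgeR) and its short-start counts fell by 0.99 ± 0.11 (adjusted p = 1.3e-05), where 29.4% of the 15776 features tested were called. Short-start transcripts made up 4.64% and 3.73% of the TPM1 counts in MCF10A-YAP, 54.1% to 61.4% in MCF10A-TRAM2 and 55.6% and 56.1% in MCF10A-control. A further 32.5% of the counts in MCF10A-YAP and 24.8% in MCF10A-control lay in transcripts with another start or whose deposited length differs from the reference, and these rose as well, by 3.14 ± 0.11 on the log2 scale (adjusted p = 3.2e-09 from edgeR).

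TPM4 moved the other way at both starts, with an almost constant total. Its long-start counts (first exon 16178348 to 16178548) were at 302 and 292 CPM in MCF10A-YAP, 377 to 443 CPM in MCF10A-TRAM2 and 426 and 443 CPM in MCF10A-control. Its short-start counts were at 489 and 496 CPM in MCF10A-YAP, 264 to 323 CPM in MCF10A-TRAM2 and 280 and 268 CPM in MCF10A-control. The short start was the larger of the 2 in both MCF10A-YAP samples and the smaller in the other 6. In the split fit the long-start counts fell by 0.55 ± 0.07 (adjusted p = 9.3e-06 from edgeR) and the short-start counts rose by 0.85 ± 0.07 (adjusted p = 8.3e-07) on the log2 scale in MCF10A-YAP. These opposite movements leave the gene total within 0.15 of the control, so that the gene-level value of TPM4 does not show them. Against MCF10A-TRAM2, the long-start counts of TPM4 were lower by a log2 fold change of -0.48 ± 0.06, which missed the threshold of 0.5, and the short-start counts rose by 0.74 ± 0.06 (adjusted p = 4.7e-07 from edgeR). The split by first exon was added after the transcript shares had been seen.

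TPM2 and TPM3 did not show such opposite movements. TPM2 has no short form in the tables, and its long-start counts, 94.6% ± 1.2 of the gene in MCF10A-YAP and 93.5% ± 0.7 in MCF10A-control (SD, n = 2 each), rose by 1.86 ± 0.08 on the log2 scale (adjusted p = 4.5e-10 from edgeR), as the gene did. In TPM3 the long start held 0.42% of the counts in MCF10A-YAP and 0.45% in MCF10A-control, and the short start 20.4% ± 1.7 in MCF10A-YAP and 24.2% ± 3.5 in MCF10A-control. Their log2 fold changes in MCF10A-YAP were 0.11 ± 0.22 and -0.04 ± 0.20 and neither was called. Most TPM3 counts, 79.2% in MCF10A-YAP and 75.3% in MCF10A-control, were assigned to transcripts with other starts. Of these TPM3-220, annotated as subject to nonsense-mediated decay, held 35.0% ± 0.2 and TPM3-218, a retained-intron transcript, 25.5% ± 0.9 of the gene in MCF10A-YAP, against 35.4% ± 0.6 and 25.0% ± 0.5 in MCF10A-control. The protein form that these reads stand for cannot be told from the tables. In MCF10A-TRAM2, none of the long-start or short-start features of the 4 genes was called, where 0.057% of all features were, and their log2 fold changes ran from -0.21 to 0.22.

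The test of each transcript against the rest of its gene gave the same picture for TPM1. Of 78 tropomyosin transcripts tested, 4 were called in MCF10A-YAP against MCF10A-control, all of TPM1, where 0.349% of the 65248 transcripts tested were. TPM1-208, the short form shown above, took 1.90% and 2.40% of TPM1 counts in MCF10A-YAP, 30.1% to 38.3% in MCF10A-TRAM2 and 34.8% and 30.5% in MCF10A-control (relative log2 fold change -2.73, adjusted p = 6.3e-05 from edgeR's transcript usage test). TPM1-214, a decay-annotated transcript with the same start, took 1.76% and 0.637% in MCF10A-YAP, 16% to 19.6% in MCF10A-TRAM2 and 13.9% and 19.5% in MCF10A-control (-2.64, adjusted p = 0.012 from edgeR). TPM1-220, the long form shown above, took 14.9% and 15.7% in MCF10A-YAP, 2.23% to 6.68% in MCF10A-TRAM2 and 2.17% and 3.02% in MCF10A-control (1.77, adjusted p = 0.039 from edgeR). TPM1-212, a decay-annotated transcript of the long start, took 23.4% and 24% in MCF10A-YAP, 0% to 12.5% in MCF10A-TRAM2 and 7.73% and 2.16% in MCF10A-control (1.56, adjusted p = 0.04 from edgeR). TPM1-212 ranged widely among the MCF10A-TRAM2 samples, and the uncertainty of Salmon in placing reads among transcripts that share exons was not included in the test. The calls of TPM1-214, TPM1-220 and TPM1-212 were lost without any 1 of the MCF10A-YAP or MCF10A-control samples, and those of TPM1-220 and TPM1-212 also without MCF10A-TRAM2 C (adjusted p from 0.051 to 0.99 from edgeR), while TPM1-208 kept its call without each sample in turn (adjusted p at most 0.022 from edgeR).

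For the other tropomyosins no transcript passed this test. TPM4-221, the long form, took 33.8% and 33.4% of TPM4 counts in MCF10A-YAP, 46.5% to 54.6% in MCF10A-TRAM2 and 53.8% and 55.1% in MCF10A-control. TPM4-218, the short form, took 50.5% and 50.6% in MCF10A-YAP, 30.2% to 34.9% in MCF10A-TRAM2 and 32.7% and 29.2% in MCF10A-control. The groups did not overlap for either, but edgeR's usage test gave adjusted p of 0.85 and 0.84 and limma's 0.00025 and 0.0026, so that the call depends on the tool. Among the TPM2 long forms, TPM2-202 took 48.5% ± 1.7 of the counts in MCF10A-YAP and 36.7% ± 1.0 in MCF10A-control (SD, n = 2 each). Another long form of the gene took 22.9% ± 0.2 in MCF10A-YAP and 31.9% ± 0.1 in MCF10A-control, and neither was called. TPM1-206, another long form, took 10.6% ± 0.2 in MCF10A-YAP and 6.76% ± 1.73 in MCF10A-control, and it was not called either. In MCF10A-TRAM2 against MCF10A-control edgeR and limma each called 0 of the 78 transcripts, where edgeR called 0.193% of all transcripts. An unadjusted p under 0.05 from edgeR was found for 2 of the 78, beside 1914 of all 65248.

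Promoter sequence was available for 8 of the 10 genes in RefSeq windows of 300 bases on GRCh38.p14, 250 before and 50 after a start, 14 windows in all. TAGLN and MYL9 had none there. The CArG box, the element bound by serum response factor in smooth-muscle genes, was searched as an exact match to CC, a run of A or T bases and GG. This pattern reads the same on both strands. It was found in 2 of the 14 windows, those of CNN2 and of the long start of TPM4, and in 1.3% of 34796 windows of all genes. Elements with another base in the pattern, or outside the windows, were not searched for. GGAATG or its complement CATTCC, the core of the element bound by TEAD factors, was found in 1 window each of ACTA2 and CNN3 and in 14% of all windows. TATAAA was in none of the 14 windows and in 11.6% of all windows. The 2 windows with a CArG box are shown, chosen for that match, with the window of the short start of TPM4 for comparison. Capitals mark the CArG box. The windows of ACTA2, CNN3 and TPM2, which also rose, held no exact match and are not shown.
CNN2, chr19:1026358-1026657, plus strand: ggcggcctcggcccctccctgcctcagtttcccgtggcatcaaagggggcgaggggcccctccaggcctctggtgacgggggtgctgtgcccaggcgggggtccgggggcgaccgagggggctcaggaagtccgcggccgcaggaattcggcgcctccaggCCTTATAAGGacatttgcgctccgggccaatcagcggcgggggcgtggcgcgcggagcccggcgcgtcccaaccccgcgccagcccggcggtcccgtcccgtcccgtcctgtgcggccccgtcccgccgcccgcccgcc
TPM4, long start, chr19:16067288-16067587, plus strand: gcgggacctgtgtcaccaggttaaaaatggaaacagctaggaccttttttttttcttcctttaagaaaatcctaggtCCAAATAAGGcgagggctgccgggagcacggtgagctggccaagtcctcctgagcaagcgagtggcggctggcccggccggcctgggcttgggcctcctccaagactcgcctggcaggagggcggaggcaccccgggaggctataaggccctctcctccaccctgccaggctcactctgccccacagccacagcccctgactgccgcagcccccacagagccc
TPM4, short start, chr19:16076245-16076544, plus strand: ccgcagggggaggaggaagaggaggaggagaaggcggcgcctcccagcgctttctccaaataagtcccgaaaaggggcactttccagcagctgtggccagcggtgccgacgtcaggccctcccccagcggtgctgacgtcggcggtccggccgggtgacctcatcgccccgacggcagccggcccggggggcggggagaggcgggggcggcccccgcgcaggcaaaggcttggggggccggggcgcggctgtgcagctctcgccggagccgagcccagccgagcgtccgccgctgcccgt
The last 50 bases of the TPM4 windows were found unchanged in TPM4-221 and in TPM4-218, which ties each window to its form. The CArG box lay 89 bases before the start in CNN2 and 173 bases before the long start in TPM4, and none lay in the window of the short start. The window of TPM1 in this table belongs to the short start, and that of the long start was not analysed here. A match is a description of the letters only.

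Genes related to the members were read from lists chosen with results of these data known, which share some genes, among them MYLK, VCL, CSRP1 and MYH9. In MCF10A-YAP against MCF10A-control 15.3% of all genes tested were called as higher, the share to set beside the counts of each list. Of 9 relatives of the members among myosin light chains, transgelins and caldesmon, 6 were tested in MCF10A-YAP and 5 rose (median log2 fold change 0.55). CALD1, the actin- and tropomyosin-binding protein caldesmon, averaged 612 ± 17 CPM in MCF10A-YAP and 263 ± 0.4 CPM in MCF10A-control (SD, n = 2 each; log2 fold change 1.22, adjusted p = 4.4e-10 from edgeR), and the nonmuscle regulatory light chains MYL12A and MYL12B rose by 0.54 and 0.55 on the log2 scale. These relatives were at 424 ± 13 and 622 ± 1 CPM in MCF10A-control, where MYL9 was at 1.93 ± 0.44 CPM. The cytoplasmic actins were not called: ACTB averaged 9846 ± 223 CPM in MCF10A-YAP and 7136 ± 30 CPM in MCF10A-control, a log2 fold change of 0.46 with an adjusted p of 3e-04, and ACTG1 1684 ± 35 CPM in MCF10A-YAP and 1532 ± 29 CPM in MCF10A-control, a log2 fold change of 0.14 with an adjusted p of 0.076 (edgeR). Of 12 other smooth-muscle contractile genes, 4 were tested and all 4 rose, among them CSRP1 (1.15), SMTN (smoothelin, 0.88) and MYLK (myosin light-chain kinase, 1.42). The other 8, which include the smooth-muscle myosin heavy chain MYH11 and the muscle-specific coactivator MYOCD, had too few counts; MYH11 averaged 0.338 CPM in MCF10A-YAP and 0.310 CPM in MCF10A-control, and MYOCD was listed at 0 in all samples.

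Among 15 nonmuscle myosin and stress-fibre genes, 9 rose and 1 fell in MCF10A-YAP (median log2 fold change 0.81), beside 15.3% and 14.1% of all genes tested. PALLD (1.32), ACTN1 (1.11) and MYH9 (0.95) had the smallest adjusted p. FLNC, another of the 9, passed the count filter only through MCF10A-YAP. The 1 that fell was MYH14, a nonmuscle myosin heavy chain, at 0.12 ± 0.05 CPM in MCF10A-YAP and 5.89 ± 0.43 CPM in MCF10A-control (SD, n = 2 each; adjusted p = 3.4e-07 from edgeR). Of 10 genes for tropomodulins, leiomodins and troponins, the partners that cap or regulate tropomyosin-coated filaments, 6 were tested, 3 rose and 1, TMOD1, fell. TMOD3 (0.48) and TNNT1 (-0.07) were not called. TNNC1 and TNNT2, which rose, passed the count filter only through MCF10A-YAP, and MYH14 and TMOD1 only through the other groups. The counts of rises and falls thus depend in part on that filter. TMOD2 averaged 26.6 ± 0.2 CPM in MCF10A-YAP and 7.44 ± 0.20 CPM in MCF10A-control, while TNNC1 averaged 3.54 ± 0.25 CPM in MCF10A-YAP and 0.149 ± 0.017 CPM in MCF10A-control, and TNNT2 1.63 ± 0.07 CPM in MCF10A-YAP and 0.2 ± 0.283 CPM in MCF10A-control (SD, n = 2 each). Of the 6 genes for serum response factor and its cofactors 5 were tested and 1 was called, beside 29.4% of all genes tested: MRTFB, a coactivator, fell by 0.64 on the log2 scale, to 51.2 ± 0.4 CPM in MCF10A-YAP against 79.6 ± 0.6 CPM in MCF10A-control. The coactivator MRTFA was at 34.5 ± 1.0 CPM in MCF10A-YAP and 30.0 ± 2.2 CPM in MCF10A-control (SD, n = 2 each). Its log2 fold change of 0.21 had an adjusted p of 0.044 from edgeR but was below the size needed for a call. SRF gave 0.07 with an adjusted p of 0.46 from edgeR. Of 14 other genes known as targets of that factor, 9 rose and 3 fell in MCF10A-YAP, beside 15.3% and 14.1% of all genes tested. CCN1 (5.40), CCN2 (4.74), CSRP1 and MYH9 were among the 9 that rose. FHL1, another of them, passed the count filter only through MCF10A-YAP. The 3 that fell were FOS, JUNB (-1.43) and EGR1 (-0.85). FOS, an immediate-early gene, fell by 4.05 on the log2 scale, to 1.13 ± 0.07 CPM in MCF10A-YAP against 18.8 ± 0.7 CPM in MCF10A-control. Whether any of these 14 genes changed through serum response factor was not tested. In MCF10A-TRAM2 no gene of these 7 lists was called by edgeR, beside 0.0571% of all genes tested. The unadjusted p from edgeR was under 0.05 for 0 to 2 genes of each list, beside 1994 of all 15768 genes.

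**Figure D4:**
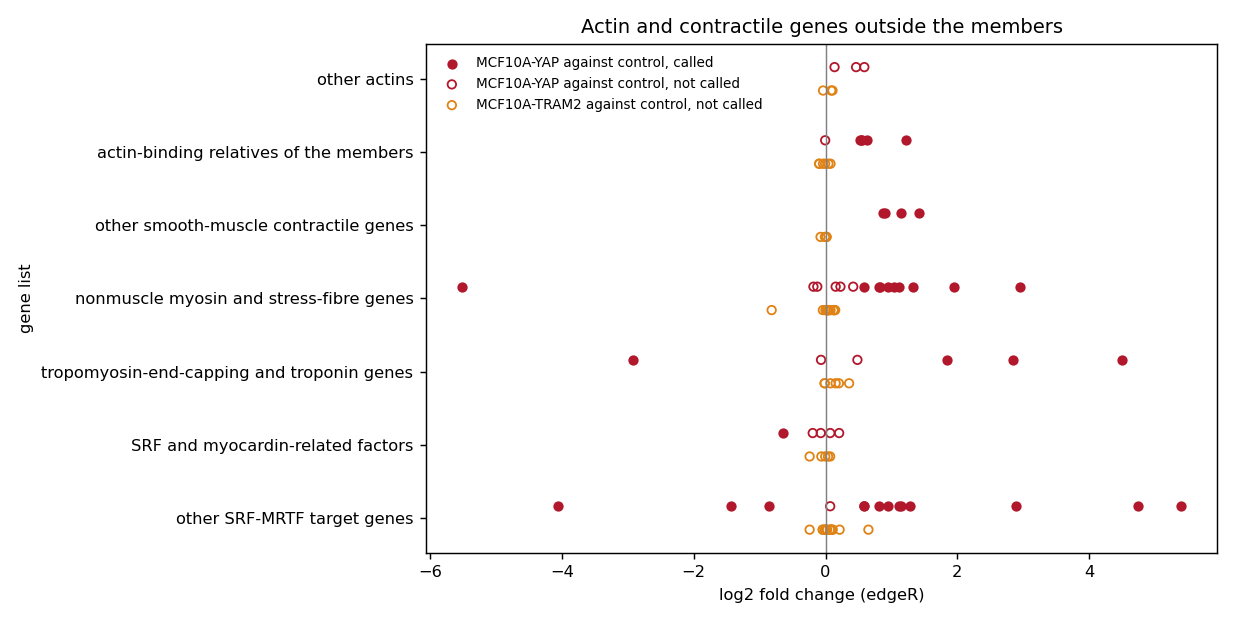
Log2 fold change (horizontal axis) of the tested genes of 7 lists around the members, in MCF10A-YAP and in MCF10A-TRAM2 against MCF10A-control; each point is a gene, filled where it was called. All 4 tested smooth-muscle genes lie above 0.5 in MCF10A-YAP, the SRF and myocardin-related factors hold none called as higher, and no MCF10A-TRAM2 gene is called.

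The labelled cell type was checked on marker lists. All 13 genes of the basal mammary epithelial list, which also holds KRT8 and KRT18, were tested. Their summed level was 8464 and 8477 CPM in MCF10A-YAP, 7712 to 9884 CPM in MCF10A-TRAM2 and 8743 to 8821 CPM in MCF10A-control. In MCF10A-YAP 3 rose and 5 fell, beside 15.3% and 14.1% of all genes tested. TP63 fell by 4.45, EPCAM by 2.77, CDH3 by 2.31, CDH1 by 1.97 and KRT5 by 0.94 on the log2 scale. TP63 averaged 0.12 ± 0.05 CPM in MCF10A-YAP and 2.8 ± 0.45 CPM in MCF10A-control (SD, n = 2 each), so the sum does not show its fall. It passed the count filter only through the other groups. The 3 that rose were keratins, KRT8 by 0.96, KRT17 by 0.73 and KRT18 by 0.60 on the log2 scale. KRT8 and KRT18 are known as keratins of simple and luminal epithelium. KRT8 averaged 1997 ± 14 CPM in MCF10A-YAP and 1026 ± 44 CPM in MCF10A-control (SD, n = 2 each). KRT18 averaged 760 ± 23 CPM in MCF10A-YAP and 503 ± 3 CPM in MCF10A-control (SD, n = 2 each). Both rises enter the summed level, so that sum does not show the falls of the 5 genes named above. Of 7 myoepithelial and smooth-muscle markers outside the members 3 were tested and rose: OXTR, MYLK and SMTN. MYLK and SMTN were already counted among the smooth-muscle contractile genes above. OXTR, the oxytocin receptor, was at 39.9 ± 3.0 CPM in MCF10A-YAP and 1.97 ± 0.12 CPM in MCF10A-control. SMTN, the largest part of the sum of this list, averaged 164 CPM in MCF10A-YAP and 89.2 CPM in MCF10A-control. MYH11, DES, LMOD1 and ITGA8 had group means of at most 0.338 CPM. The 7 fibroblast markers summed to 93.1 to 97.5 CPM in MCF10A-YAP and 72.2 to 76.3 CPM in MCF10A-control, mostly FAP (93.9 ± 3.1 CPM in MCF10A-YAP, 70.8 ± 2.4 CPM in MCF10A-control), while COL1A1 fell by 2.09 on the log2 scale and COL1A2, COL3A1, PDGFRA, DCN and LUM had group means of at most 0.358 CPM. Pericyte and endothelial markers summed to 2.88 to 4.02 and to 2.94 to 2.95 CPM in MCF10A-YAP, against 10.8 to 11.4 and 9.70 to 10.6 CPM in MCF10A-control. The leukocyte list summed to 49.6 to 55.4 CPM in MCF10A-YAP and 40.6 to 41.0 CPM in MCF10A-control, mostly CD68 (52.1 ± 4.1 CPM in MCF10A-YAP, 38.3 ± 0.03 CPM in MCF10A-control), with PTPRC at most at 0.123 CPM and CD3E at 0. The summed myoepithelial and smooth-muscle markers were at 256 to 262 CPM in MCF10A-YAP and 111 to 113 CPM in MCF10A-control, and the part of these marker levels in the rise of the members was not tested.

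Over the 8 samples, the protein-coding genes whose log2 CPM followed TAGLN most closely were DBN1 (drebrin, an actin-side-binding protein; r = 0.9993), UBL3 (0.9993) and NEXN (nexilin, an actin-binding protein of muscle; 0.9990). For ACTA2 they were MEGF6 (0.9978), COL27A1 (0.9969) and WNT5B (0.9964). These values are descriptions over 8 samples, of which the 2 of MCF10A-YAP stand apart from the other 6, and 334 and 82 of 10498 genes had r over 0.99 with TAGLN and ACTA2.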

How the data were processed

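The 10 libraries of polyA RNA from MCF10A cells were made, per the labels, with a TruSeq RNA kit, and the study's methods name a stranded TruSeq kit. The authors removed adapters with cutadapt and quantified transcripts with Salmon. The versions, the transcript index and the use of strand in quantification were not stated in the texts read. The deposited estimated counts are Salmon's reads per transcript, not normalized. The deposited TPM values (transcripts per 1000000) are those counts divided by effective length and scaled within each library by the authors.

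Estimated counts were summed per gene, or kept per transcript, and rounded to whole numbers. Control libraries A and C, and B and D, were summed to 1 sample each because their counts did not differ detectably beyond sampling noise over genes with whole counts in all control libraries. Genes were filtered with filterByExpr, TMM-normalized and tested with edgeR 4.0.16 (robust quasi-likelihood fit of all 3 groups, Benjamini-Hochberg adjustment over all genes tested; R 4.3.3), and transcript usage with edgeR's diffSpliceDGE over all transcripts. Levels are counts per 1000000 on TMM-scaled library sizes. DESeq2 1.42.0 and limma 3.58.1 served as alternatives, with other normalizations and filters, the 10 libraries kept apart, single runs, length-scaled counts and each sample left out in turn; scripts were tested on simulated data. Coding lengths and first exons came from GENCODE v44 on GRCh37, used only where the reference transcript had the deposited length (31 of 38 TPM1, 9 of 10 TPM2, 26 of 27 TPM3 and 34 of 35 TPM4 transcripts), since the deposited names carry no coding field. Tables were handled with Python 3.11.15, pandas 2.3.3 and numpy 2.4.6.

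The members, the related lists and the markers were chosen with earlier results of these data known. All 10 members were named, with tropomyosin transcripts that were called or held at least 10% of their gene in a group, and up to 3 called genes of each list by smallest adjusted p, plus a few chosen after their values were seen. With 2 against 2 samples an exact permutation test of 1 gene cannot go below p = 0.333, so none was used. The result of 1 further gene list is not reported here.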

Additional observations from a re-analysis of the deposited data

Results flagged for a closer look

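CNN3 in MCF10A-TRAM2 B, at 180.4 CPM, stood apart from the other 3 MCF10A-TRAM2 samples, which were at 145, 146 and 145 CPM, with a gap to the nearest of them beyond Dixon's 95% critical value for 4 samples. It was the only one of 22 sets of values to do so, and chance marks about 1 in 20. The same library had the highest TRAM2 level of its group, 611 CPM, and the highest level of ACTA2, TAGLN, MYL9, CNN2, TPM1, TPM2 and TPM4 among the 4. Without it, the log2 fold change of CNN3 in MCF10A-TRAM2 against MCF10A-control was -0.21 (adjusted p = 0.0094 from edgeR), still under the threshold of 0.5 in size.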

How the results depend on the processing

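For the 9 tested members, all 144 alternative values of MCF10A-YAP against MCF10A-control and all 144 against MCF10A-TRAM2 kept their direction and their side of the threshold. In MCF10A-TRAM2 against MCF10A-control 135 did and 18 changed sign, with none called. On the log2 scale these were TAGLN (-0.166) and MYL9 (-0.221) in the second run, TPM4 without a filter on low counts (-0.011), and TPM1 with DESeq2 (0.005), RLE size factors (0.01), the 10 libraries kept apart (0.006), only the groups compared (0.001) and the first run (0.083). Leaving out each sample in turn gave ranges of -0.069 to 0.402 for MYL9, -0.022 to 0.078 for CNN2, -0.033 to 0.039 for TPM1 and -0.024 to 0.036 for TPM4 there. The library letters did not pair the samples (correlations of same-lettered deviations -0.035 to 0.038). With the letter as a replicate block over the 10 libraries, 7 members were called in MCF10A-YAP and 0 in MCF10A-TRAM2 against MCF10A-control, and TPM1 in MCF10A-TRAM2 was at 0.006.

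Of the tropomyosin transcripts, 4 were called in MCF10A-YAP against MCF10A-control, 7 with limma, 2 with at least 10 counts in 1 sample, and 1 to 4 without each sample in turn; in MCF10A-TRAM2 0 to 1 were called without each sample. Usage changed sign without a call in MCF10A-TRAM2 with limma for TPM3-220 (-0.002), TPM3-218 (-0.028) and TPM1-212 (-0.98). Without each sample in turn the usage ranges that crossed 0 in MCF10A-YAP were -0.023 to 0.003 for TPM3-220, -0.006 to 0.042 for TPM3-218 and -0.325 to 0.217 for TPM2-210. In MCF10A-TRAM2 they were -0.01 to 0.027 for TPM3-220, -0.011 to 0.014 for TPM3-218, -0.483 to 0.054 for TPM2-210, -0.251 to 1.042 for TPM1-212, -0.036 to 0.096 for TPM1-208, -0.122 to 0.217 for TPM1-214 and -0.021 to 0.093 for TPM4-218. The cause was not tested.

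The split by first exon, chosen after seeing the data, kept its 4 calls of TPM1 and TPM4 in MCF10A-YAP in all alternatives (long start of TPM1 4.35 to 4.58, short start -1.14 to -0.83). In MCF10A-TRAM2 the ranges without each sample were -0.069 to 0.168 for the long and -0.004 to 0.092 for the short start of TPM1. Shares computed from TPM values were smaller: the short start of TPM1 held 1.63% in MCF10A-YAP and 23.6% in MCF10A-control. MCF10A-YAP was sequenced in the first run only, and TAGLN and MYL9 had at most 55 counts in every sample outside MCF10A-YAP.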
